A study of Homo sapiens with 16 samples.

Results

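HOX genes encode homeodomain transcription factors, and the combination that a cell expresses records its position along the head-to-tail axis of the embryo. All genes of the single-cell gene list whose symbol is HOXA, HOXB, HOXC or HOXD followed only by a number from 1 to 13 were taken as members, which gave 39 of 36601 genes (11 HOXA, 10 HOXB, 9 HOXC and 9 HOXD genes). Genes with the same number in different clusters form a paralogue group. By group there were 8 members in groups 1 to 3, 15 in groups 4 to 8, 4 in group 9, 3 each in groups 10 and 11, and 6 in groups 12 and 13. The HOXA cluster lies on chromosome 7 (27092993 to 27200091), HOXB on chromosome 17 (48528526 to 48728750), HOXC on chromosome 12 (53938831 to 54056030) and HOXD on chromosome 2 (176092721 to 176190907), in GENCODE 44 on GRCh38.

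The order of genes within a cluster mirrors the order in which they are switched on as the body axis forms. Low-numbered groups are known for the hindbrain and neck, middle groups for the trunk, and the highest groups for the lumbar, sacral and tail regions and the distal limb. In the kidney, groups 10 and 11 are the best known. The metanephric mesenchyme, the tissue that becomes nephrons and kidney stroma, needs the group 11 paralogues together with EYA1 and PAX2 to form a kidney. HOX proteins bind DNA with partner homeodomain proteins of the PBX and MEIS families, and retinoic acid and the CDX factors are known upstream inputs.

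Kidney organoids were grown from the human embryonic stem cell line UM77-2, which all groups described here share, so that no value speaks of another line. Isolated spheroids were sequenced in bulk on days 21, 25 and 29 (D21, D25 and D29), with 1 library a day in a set called set 1 here and 2 libraries a day, labelled Org1 and Org2, in set 2. A further bulk set, called the TNF set here, holds 1 library each of spheroids given vehicle (VC) or 5 ng/ml TNFα, an inflammatory cytokine, for 24 h and for 48 h. Treatment began on D23 and all were collected on day 25, and whether the 24 h spheroids then stayed a day without TNFα is not stated in the sources used here. Droplet single-cell libraries were made from whole wells on day 24, 1 with VC (the library labelled Ctrl) and 1 with 5 ng/ml TNFα for 24 h, so they hold cells around the spheroids that the bulk libraries lack. A further single-cell sample, labelled D25 NLW50 Ctrl, is not analysed here.

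Bulk libraries held 25508651 to 29408687 reads in set 1, 19073609 to 30282025 in set 2 and 49948198 to 59246286 in the TNF set. In set 2, the D29 libraries differed from each other more than those of the other days did, with a chi-square per gene between replicates of 17.6 against 5.05 on D21 and 4.93 on D25, and D29 replicate 2 stood apart. Nothing in the labels says whether Org1 and Org2 are separate cultures, so p-values measure the spread between these libraries, which may be technical. In bulk RNA, fewer cells of a type and less RNA per cell cannot be told apart. The podocyte and proximal tubule markers expected of kidney organoids were present in all bulk libraries.

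Bulk tables listed 31 of the 39 members in set 1, 33 in set 2 and 30 in the TNF set. The members of groups 12 and 13 (HOXA13, HOXB13, HOXC12, HOXC13, HOXD12 and HOXD13) were listed in none of them. HOXC11 and HOXD11 were listed only in set 2, and HOXD10 was not listed in the TNF set. HOX genes overlap each other and many antisense transcripts, and no source used here gives the strand setting of the read counting. Of the 39 members, 16 share exon bases with a gene on the same strand, among them HOXD10 and HOXD11 with each other, and 20 share some with a gene on the opposite strand, so reads of these partners cannot be told apart from theirs.

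The promoter sequences below belong to the members on which the results turn: those of groups 10 and 11, which rose with culture time, and HOXD8 and HOXD1, which stood apart in time, in cell class or under TNFα. Each is the window of 250 bases before an annotated start, 5′ to 3′ on the gene's strand, from RefSeq on GRCh38.p14, with CG dinucleotides in capitals. HOXA10 has a further annotated start that is not printed, and HOXC10 and HOXC11 had no entry.
HOXA10 (minus strand, chr7:27174321-27174570): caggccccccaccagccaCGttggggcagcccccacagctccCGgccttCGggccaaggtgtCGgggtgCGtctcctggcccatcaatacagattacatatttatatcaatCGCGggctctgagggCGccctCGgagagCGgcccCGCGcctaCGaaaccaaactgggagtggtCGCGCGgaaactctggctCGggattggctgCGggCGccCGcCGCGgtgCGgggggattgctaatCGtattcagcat
HOXA11 (minus strand, chr7:27185233-27185482): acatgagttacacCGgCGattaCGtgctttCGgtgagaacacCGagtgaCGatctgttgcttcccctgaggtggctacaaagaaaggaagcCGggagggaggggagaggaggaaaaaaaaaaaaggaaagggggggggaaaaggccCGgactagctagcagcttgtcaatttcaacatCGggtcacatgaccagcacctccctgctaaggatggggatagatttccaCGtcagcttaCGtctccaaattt
HOXD10 (plus strand, chr2:176116528-176116777): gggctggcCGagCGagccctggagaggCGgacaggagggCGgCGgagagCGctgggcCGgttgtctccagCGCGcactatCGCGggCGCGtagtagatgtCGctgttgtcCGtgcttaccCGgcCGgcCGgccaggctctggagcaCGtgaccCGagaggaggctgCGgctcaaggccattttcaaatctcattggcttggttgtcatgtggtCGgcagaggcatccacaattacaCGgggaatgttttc
HOXD11 (plus strand, chr2:176107030-176107279): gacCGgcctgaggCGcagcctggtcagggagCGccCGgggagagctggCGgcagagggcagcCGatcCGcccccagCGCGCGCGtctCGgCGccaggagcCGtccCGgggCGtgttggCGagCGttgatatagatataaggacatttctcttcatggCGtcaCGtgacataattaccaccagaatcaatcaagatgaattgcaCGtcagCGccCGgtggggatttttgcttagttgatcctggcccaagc
HOXD8 (plus strand, chr2:176129455-176129704): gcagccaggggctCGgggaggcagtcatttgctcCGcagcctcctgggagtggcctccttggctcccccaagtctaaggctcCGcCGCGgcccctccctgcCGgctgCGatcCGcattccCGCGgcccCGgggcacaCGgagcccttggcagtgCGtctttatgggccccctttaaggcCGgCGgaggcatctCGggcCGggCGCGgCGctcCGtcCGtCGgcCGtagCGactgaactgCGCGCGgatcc
HOXD1 (plus strand, chr2:176188418-176188667): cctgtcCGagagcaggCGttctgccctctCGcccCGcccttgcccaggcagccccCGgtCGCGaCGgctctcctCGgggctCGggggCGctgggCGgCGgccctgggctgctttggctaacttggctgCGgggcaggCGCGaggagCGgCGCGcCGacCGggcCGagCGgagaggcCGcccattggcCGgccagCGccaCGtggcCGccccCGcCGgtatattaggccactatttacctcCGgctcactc

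CG content differed between the windows. HOXA10 holds 24 CG dinucleotides, HOXD10 and HOXD11 23 each, HOXD8 28 and HOXD1 31, whereas HOXA11 holds 11, which is the median of all 35116 windows. The 27 windows of the 20 HOX genes with an entry had a median of 19 CG. The hexamer TTTATG, a core that CDX and posterior HOX proteins are known to bind, was searched on both strands and occurred in 9.64% of all windows. Among the HOX windows it occurred in those of HOXA3, HOXA9 and HOXD8, and the hexamer TTTACG, found in 2.68% of all windows, occurred in those of HOXA9, HOXC4 and HOXC5. HOXC4 and HOXC5 have the same window, which is counted for each of them, so their match is the same site. These matches describe letters in a window and no more.

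Per kilobase of exon that no other gene shares on either strand, the members of set 2 covered a wide range of levels. HOXB6, a trunk gene of group 6, was highest, with a lowest, median and highest value over the 6 libraries of 67.2, 76.9 and 114.6 CPM per kb. HOXD1 followed at 49.2, 64.2 and 69.8 CPM per kb and HOXB9 at 46.0, 57.7 and 128.7 CPM per kb, and these ranges overlap. The place of HOXD1 rests on the 39.9% of its exon bases that are free on both strands. Of its exon bases 96.9% are free on its own strand alone, and over these its level per kb would be lower. HOXA10 ranked 17th of 33 with 14.9, 21.9 and 38.3 CPM per kb. HOXC10 ranked 26th with 5.34, 8.69 and 22.7 CPM per kb. The lowest 5 members were the hindbrain gene HOXB1, then HOXD10, HOXA11, HOXD11 and HOXC11, with medians of 1.10, 0.401, 0.306, 0.0682 and 0.0241 CPM per kb. The other 4 members of groups 10 and 11 were therefore all among these 5.

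The question put to the time course was how HOX levels differed between days 21, 25 and 29. Between D21 and D29 of set 2, the members of groups 10 and 11 rose together, and the 4 largest rises among the listed HOX genes were theirs. HOXA10 (ENSG00000253293, chromosome 7, 27170605 to 27180261, minus strand), a posterior gene active in metanephric mesenchyme and stroma, was at 42.0 and 40.7 CPM on D21, 56.4 and 63.3 CPM on D25, and 87.2 and 104.6 CPM on D29. Every D25 library was above both D21 libraries and both D29 libraries were above all others. The difference between D29 and D21 was 1.19 on the log2(CPM + 1) scale (SE 0.10, limma adjusted p = 0.000266), and the mean CPM ratio was 2.32.

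HOXC10 (ENSG00000180818, chromosome 12, 53985065 to 53990279, plus strand), a lumbar-level gene of the same group, was at 11.4 and 12.2 CPM on D21, 16.3 and 20.9 CPM on D25, and 32.9 and 48.6 CPM on D29. Its days did not overlap, although the D29 libraries lay far apart. It rose by 1.68 on the log2(CPM + 1) scale (SE 0.18, limma adjusted p = 0.000785). HOXD10 (ENSG00000128710, chromosome 2, 176108790 to 176119937, plus strand) was low, at 0.461 and 0.218 CPM on D21, 0.734 and 0.897 CPM on D25, and 3.80 and 4.77 CPM on D29. Again no library of a later day reached down to an earlier day. Its rise of 1.96 on the log2(CPM + 1) scale (SE 0.16, limma adjusted p = 0.000248) was the largest of the 33 members, and its mean CPM ratio was 12.6.

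HOXA11 (ENSG00000005073, chromosome 7, 27181157 to 27185232, minus strand), a group 11 gene that marks nephron progenitors, was at 0.231 and 0.145 CPM on D21, 0.472 and 0.718 CPM on D25, and 3.01 and 3.54 CPM on D29. The D21 values rest on 5 and 4 reads, and the days did not overlap. It rose by 1.83 on the log2(CPM + 1) scale (SE 0.14, limma adjusted p = 0.00019), with a mean CPM ratio of 17.4. HOXC11 (ENSG00000123388, chromosome 12, 53973126 to 53977643, plus strand) had 0 reads in both D21 libraries, 0.157 and 0 CPM on D25, and 0.793 and 1.34 CPM on D29, the last from 24 and 37 reads. Against a floor of 3 reads over the D21 libraries (0.0609 CPM) it was at least 17.5-fold higher on D29, and limma gave a difference of 1.02 on the log2(CPM + 1) scale (SE 0.14, adjusted p = 0.00193). HOXD11 (ENSG00000128713, chromosome 2, 176104216 to 176109754, plus strand), a partner of HOXA11 in mouse kidney formation, was at 0.0922 and 0 CPM on D21, 0.0524 and 0.135 CPM on D25, and 0.859 and 0.795 CPM on D29. D21 and D25 overlapped and only the D29 libraries stood above, with a rise of 0.79 on the log2(CPM + 1) scale (SE 0.09, limma adjusted p = 0.00095).

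**Figure D1:**
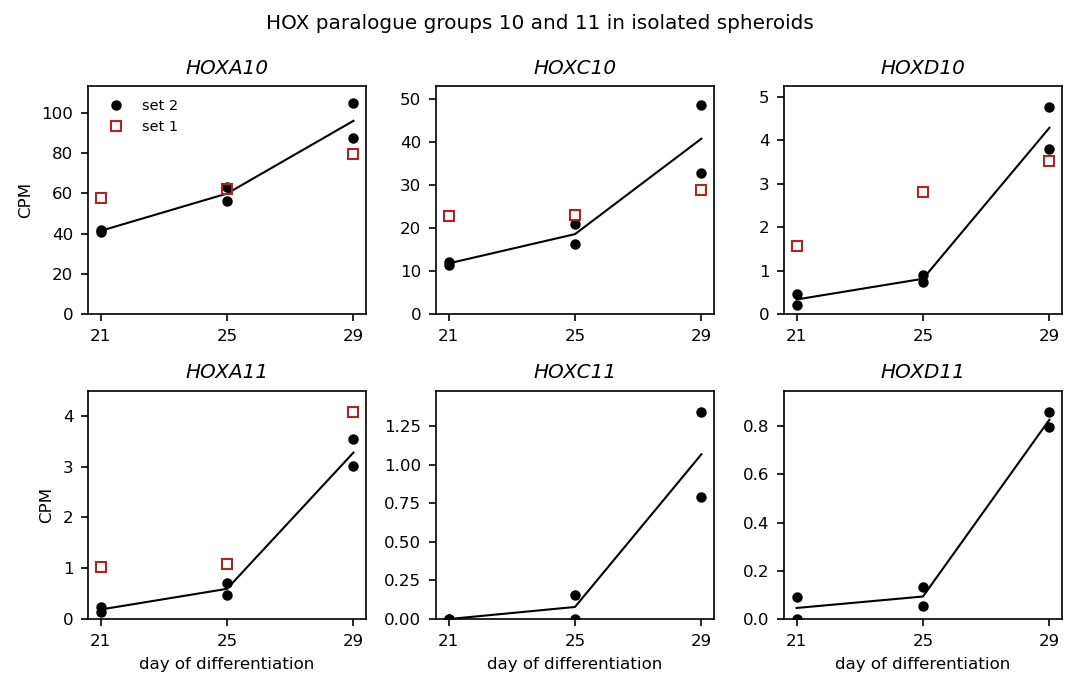
Level of the 6 members of paralogue groups 10 and 11 in CPM (y axis) by culture day (x axis), with black dots for the 2 set 2 libraries of a day, a line through their mean and red open squares for the single set 1 libraries. In set 2 the D29 libraries of each gene lie above its D21 libraries, from 87.2 and 104.6 CPM for HOXA10 to 0.859 and 0.795 CPM for HOXD11.

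Over all members, 19 of the 33 listed in set 2 passed the test between D29 and D21, 18 higher and 1 lower, where 18.4% of all 27650 genes passed, 10.0% higher and 8.33% lower. A further 8 members were under an unadjusted p of 0.05. The difference was positive in 28 of 33 members against 45.8% of all genes, and its median was 0.42 against -0.02 on the log2(CPM + 1) scale. By group, 3 of 3 members passed in group 10 and 3 of 3 in group 11, 3 of 4 in group 9 (0.39 to 1.05), 8 higher and 1 lower of 15 in groups 4 to 8 (-0.57 to 0.68), and 1 of 8 in groups 1 to 3 (-0.88 to 0.37). By cluster, HOXC had 7 of 7 higher (0.57 to 1.68), HOXA 6 of 10, HOXB 3 of 9, and HOXD 2 higher and 1 lower of 7. With 1 library of either day left out, the median difference was 0.29 to 0.67 over the members, lowest without D29 replicate 2. Over all genes it was -0.03 to 0. Fewer members, and fewer of all genes, passed without either D21 library or without D29 replicate 2. The 6 members of groups 10 and 11 passed in each of the 13 or 14 fits that tested them.

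Among the other members that rose, HOXB9, a thoracic-level gene, was at 122.2 and 118.9 CPM on D21, 137.7 and 160.6 CPM on D25, and 189.6 and 332.8 CPM on D29. Both D29 libraries were above the rest, the higher by far being D29 replicate 2. Its rise of 1.05 on the log2(CPM + 1) scale (SE 0.22, limma adjusted p = 0.0141) was lost without either D21 library, and its adjusted p ran from 7.13e-05 to 0.0932 over the settings. HOXC6, a gene of the upper trunk, was at 45.7 and 47.6 CPM on D21, 54.4 and 60.1 CPM on D25, and 68.2 and 83.8 CPM on D29. Its days did not overlap, and it rose by 0.68 (SE 0.10, limma adjusted p = 0.00341). The other risers were HOXC5 (0.67), HOXC8 (0.66), HOXB5 (0.63), HOXC4 (0.58), HOXC9 (0.57), HOXB6 (0.51), HOXA6 (0.43), HOXA9 (0.39), HOXA2 (0.37) and HOXA5 (0.35), with limma adjusted p from 0.00156 for HOXC8 to 0.0442 for HOXA2.

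HOXD8 (ENSG00000175879, chromosome 2, 176129694 to 176132695, plus strand), a trunk gene, went the other way. It was at 81.9 and 79.1 CPM on D21, 61.7 and 61.6 CPM on D25, and 53.1 and 54.6 CPM on D29. The days did not overlap and libraries of a day lay close together. It fell by 0.57 on the log2(CPM + 1) scale (SE 0.06, limma adjusted p = 0.000843) and passed in all 14 fits. HOXB1, a marker of the fourth rhombomere of the hindbrain, was at 3.92 and 3.23 CPM on D21, 2.25 and 4.80 CPM on D25, and 1.22 and 1.74 CPM on D29. Its D29 libraries were below all others, yet the difference of -0.88 (SE 0.27) had a limma adjusted p of 0.06, with 0.0195 by edgeR and 0.0135 by DESeq2 and a range of 0.0135 to 0.252 over the settings. HOXD1 showed no such trend, with 43.9 and 45.8 CPM on D21, 52.5 and 52.0 CPM on D25, and 50.8 and 37.0 CPM on D29.

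**Figure D2:**
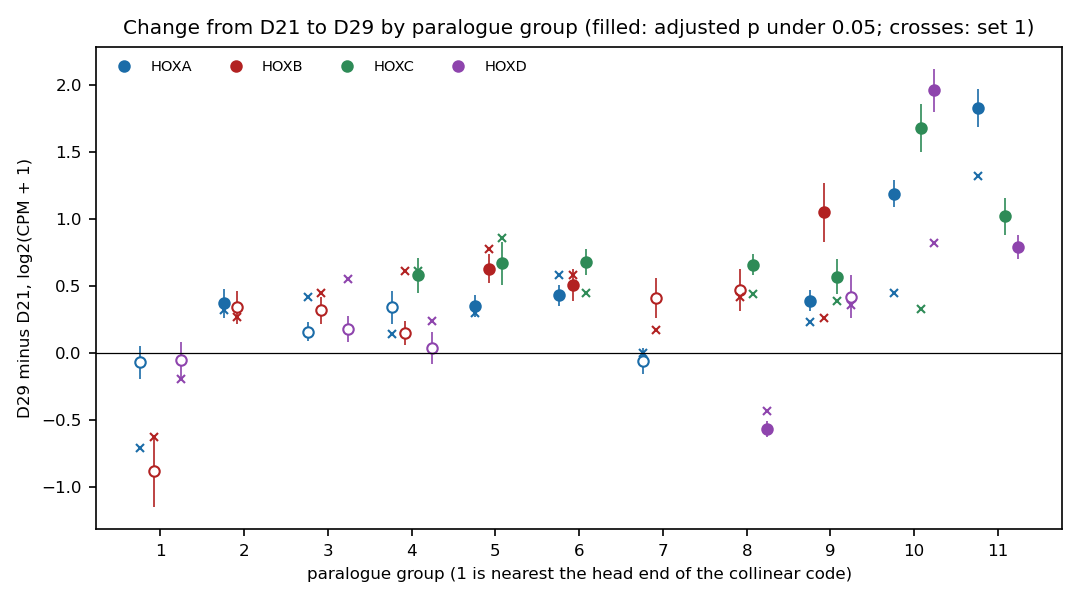
Difference between D29 and D21 on the log2(CPM + 1) scale (y axis) for the 33 listed members by paralogue group (x axis), coloured by cluster, with bars of the standard error from limma, filled points for an adjusted p under 0.05 and crosses for set 1. In set 2, groups 10 and 11 hold most of the larger rises, up to 1.96 for HOXD10, and the only filled point below 0 is HOXD8 at -0.57.

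The steps within the time course share libraries with it and with each other and are given side by side. Between D21 and D25, 2 of 33 members passed, where 5.37% of all genes did (3.39% higher and 1.99% lower): HOXA10 rose by 0.52 (SE 0.10, limma adjusted p = 0.0268) and HOXD8 fell by 0.38 (SE 0.06, limma adjusted p = 0.0167). A further 11 members were under an unadjusted p of 0.05. Between D25 and D29, 6 of 33 members passed, where 2.08% of all genes did (1.25% higher and 0.825% lower), and these were the 6 members of groups 10 and 11. HOXD10 rose by 1.52, HOXA11 by 1.41, HOXC10 by 1.07, HOXC11 by 0.91, HOXD11 by 0.72 and HOXA10 by 0.67 on the log2(CPM + 1) scale, with limma adjusted p from 0.0103 for HOXA11 to 0.0362 for HOXC10. With 1 library of either day left out, the median difference of the members between D21 and D25 was 0.17 to 0.23. Over all genes it was -0.02 to 0.01. Between D25 and D29 the median was 0.25 over the members on all 6 libraries. Without either D25 library, it was 0.21 and 0.30 over the members and 0 and -0.02 over all genes. Without D29 replicate 1 it was 0.42 over the members and -0.02 over all genes. Without D29 replicate 2 it was only 0.08 over the members and -0.01 over all genes, so most of this shift rests on that library. Calls in both steps depended on single libraries, for all genes as for the members. On all 6 libraries edgeR and DESeq2 each called 10 members between D25 and D29, with 1336 and 1278 of all genes.

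Set 1, with 1 library a day and no test, gave the same direction for 30 of the 31 members that both sets list, HOXA7 being the exception at 0.00 there. Of its 31 members, 27 were higher on D29 than on D21 against 49.5% of all genes, with a median difference of 0.39 against 0.00 on the log2(CPM + 1) scale. HOXA10 was at 57.8, 62.1 and 79.5 CPM on D21, D25 and D29, and HOXC10 at 22.7, 23.1 and 28.9 CPM. HOXD10 was at 1.56, 2.80 and 3.53 CPM, and HOXA11 at 1.02, 1.08 and 4.08 CPM. The latter was the only member with a difference past 1 on the log2 scale (1.32), which 4.49% of all genes passed in either direction. Between D25 and D29 it was again the only such member, against 0.929% of all genes, and between D21 and D25 there was none, against 1.73%. HOXD8 was again highest on D21, at 72.4, 53.0 and 53.4 CPM. The rises in groups 10 and 11 were smaller here than in set 2. The differences were 0.82 for HOXD10, 0.45 for HOXA10 and 0.33 for HOXC10, and the sets were not tested against each other. Group 10 as a whole did not stand apart in set 1. HOXC10 was below the median of the members and HOXA10 little above it, while HOXC5 (0.86) and HOXB5 (0.78) rose more than both.

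Summed over members, HOX transcripts made up 1593.8 and 1544.0 CPM on D21, 1712.2 and 1822.5 CPM on D25, and 1908.4 and 2412.3 CPM on D29 of set 2. Group 10 went from 53.9 and 53.1 CPM on D21 to 123.9 and 158.0 CPM on D29, and group 11 from 0.323 and 0.145 CPM to 4.66 and 5.68 CPM. The HOXD sum stayed within 280.2 to 324.1 CPM over the 6 libraries. The HOXC sum went from 175.4 and 173.1 CPM to 260.1 and 331.3 CPM. Group 10 gave 3.38 and 3.44% of the HOX reads on D21 and 6.49 and 6.55% on D29. In set 1 this share hardly moved, at 5.44% on D21 and 5.70% on D29, with sums of 82.1 and 111.9 CPM.

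Markers of cell types moved with these changes. The summed level of 8 stromal markers was 5179.9 and 4503.2 CPM on D21 and 14946.8 and 18511.7 CPM on D29, and that of 9 neuronal markers 216.2 and 228.9 CPM on D21 and 481.9 and 784.7 CPM on D29. The 10 podocyte markers went the other way, from 11653.9 and 12160.8 CPM to 8148.6 and 3794.7 CPM, and the 10 proximal tubule markers from 1045.1 and 867.5 CPM to 536.9 and 410.9 CPM. The 10 muscle markers went from 94.7 and 134.3 CPM on D21 through 67.9 and 70.2 CPM on D25 to 229.3 and 167.9 CPM on D29, and in set 1 from 90.9 to 310.1 CPM. In set 1 the stromal sum likewise went from 7702.3 CPM on D21 to 20028.9 CPM on D29, whereas the neuronal sum went from 945.7 to 688.0 CPM. The part of these cell types in the HOX differences was not tested in bulk, and the single-cell levels by class follow.

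Partners of HOX proteins also differed between D29 and D21. Of 9 listed PBX, MEIS and PKNOX cofactors, 5 rose and 1 fell. MEIS1 was at 200.1 and 198.7 CPM on D21, 340.5 and 343.6 CPM on D25, and 411.1 and 500.5 CPM on D29 (1.18, limma adjusted p = 0.000244), MEIS3 rose by 0.95 and PBX3 by 0.85, and PBX2 fell by 0.49. Of 20 listed regulators of HOX expression, 4 rose and 1 fell. These include the retinoic acid receptors RARG (1.18) and RARB (0.80), the retinoic acid synthesising enzyme ALDH1A2 (0.67) and, falling, GDF11 (-0.88), a ligand that promotes the trunk-to-tail switch.

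Of 12 listed metanephric partners, 4 rose and 5 fell. RET, the GDNF receptor of the ureteric bud, rose by 2.1, SIX2, a nephron progenitor factor, by 1.12 and OSR1, an early kidney mesoderm factor, by 1.19, while FOXC2, which podocytes express, fell by 1.24. SIX2 was low throughout, at a mean of 0.649 CPM on D21 and 2.61 CPM on D29. Among those that fell were also EYA1 (-0.91, limma adjusted p = 0.0159) and PAX2 (-0.69, limma adjusted p = 0.00137), named after their values were seen because the kidney needs them with group 11. Of 16 listed noncoding genes of the HOX clusters, 3 rose, namely HOXC-AS3 (0.83), HOTAIR (0.62) and HOXA11-AS (0.34), the last an antisense partner of HOXA11. Of 6 listed genes of rostral neural identity, which lies ahead of the HOX domain, 2 rose (DMBX1 by 0.54 and LHX2 by 0.44).

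The single-cell libraries show in which cells HOX transcripts lie. The VC library kept 11906 of 12494 barcodes and the TNFα library 23160 of 23160, with medians of 6358.5 and 2599.0 UMIs per cell, and 82 barcodes occur in both. Cells were clustered without HOX genes and clusters named from separate markers. Levels are the UMIs of a gene over all UMIs of the class, in CPM, with exact Poisson 95% intervals in parentheses that cover counting error only, and with 1 library per condition no difference between classes or conditions was tested. In the VC library, 165325 of 100623461 UMIs were of HOX genes (1643.0 CPM, 1635.1 to 1650.9).

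Among the named classes, neuronal-like cells held the most HOX transcripts, at 3302.4 CPM (3271.6 to 3333.5). Stromal-like cells held 1511.2 CPM (1490.7 to 1531.8), proximal tubule-like cells 1453.2 CPM (1436.1 to 1470.4) and podocyte-like cells 1099.5 CPM (1082.4 to 1116.7). Schwann or crest glia-like cells were at 1408.3 CPM (1384.4 to 1432.5), proliferating-like cells at 1391.5 CPM (1360.7 to 1422.8), muscle-like cells at 863.4 CPM (833.5 to 894.0), and cells like coelomic or gonadal epithelium lowest at 706.7 CPM (686.7 to 727.2). The proximal tubule-like class also held 724.2 CPM of early nephron and 481.6 CPM of loop or distal tubule markers beside 558.5 CPM of its own. At a resolution of 0.5 it kept 345 of its 1288 cells and stood at 1087.9 CPM, close to podocyte-like cells. In the order as given, neighbours with overlapping intervals were Schwann or crest glia-like and proliferating-like cells. The unnamed cluster 9, with ZIC1, WNT1 and SOX2 among its leading genes, held 2703.5 CPM (2660.3 to 2747.3). That was above every named class but neuronal-like cells. At a resolution of 0.5 a neural progenitor-like class arose and stood at 2851.2 CPM, so high HOX levels were not particular to neuronal-like cells. Of the 31 members with at least 50 UMIs in their top named class, 23 were highest in neuronal-like cells. These were the top named class of 20.6% of all genes with as many UMIs. A further 4 were highest in stromal-like cells (HOXA6, HOXC8, HOXD4 and HOXD9), 2 in proliferating-like cells (HOXA11 and HOXD11), HOXD1 in podocyte-like and HOXD8 in proximal tubule-like cells.

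**Figure D3:**
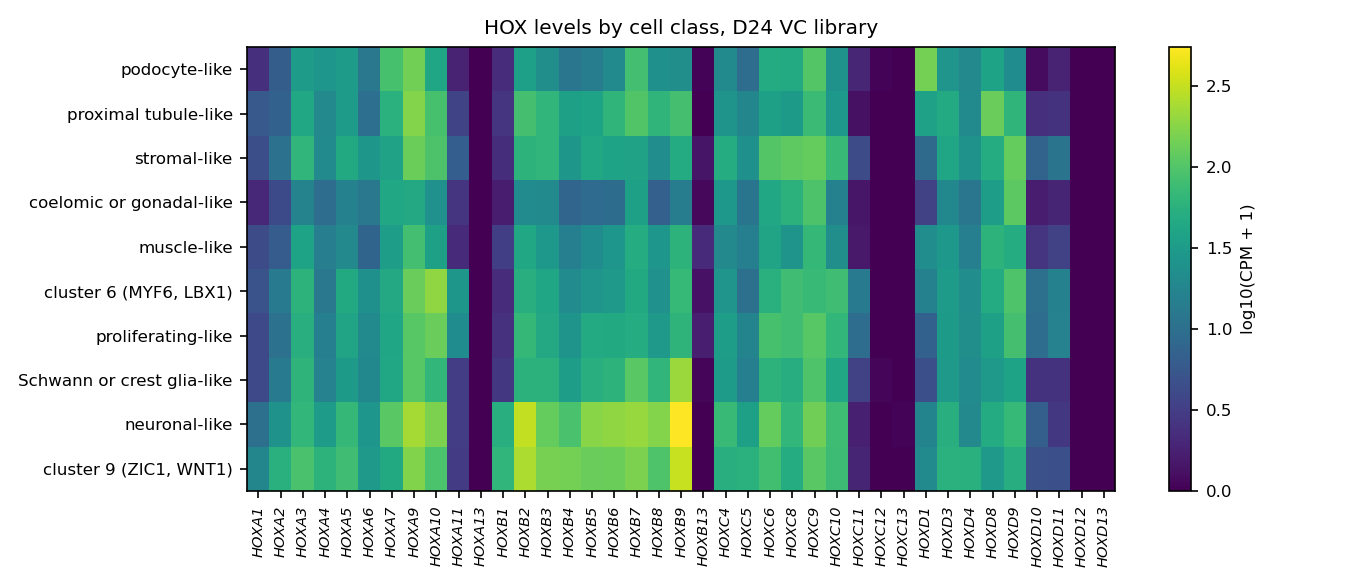
Heat map of log10(CPM + 1) for the 39 members (columns, by cluster) in the 8 named classes and in clusters 6 and 9 (rows) of the VC library. Among the named classes each HOXB gene from HOXB1 to HOXB9 is highest in the neuronal-like row, and the members of groups 12 and 13 are near 0 throughout.

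The clusters took different shares of the HOX transcripts in different cells. HOXB genes gave 56.4% (exact binomial interval 55.9 to 56.8%) of the HOX UMIs of neuronal-like cells, 45.4% (44.5 to 46.2%) in Schwann or crest glia-like cells and 36.2% (35.7 to 36.8%) in proximal tubule-like cells. In podocyte-like cells the HOXB share was 20.6%, and it was 22.2% in stromal-like cells and 16.6% in cells like coelomic or gonadal epithelium. HOXC genes gave 34.8% in the latter, 31.7% in stromal-like cells and 14.3% in proximal tubule-like cells. The HOXD share ranged from 6.35% in neuronal-like cells to 22.8% in podocyte-like cells and 25.2% in coelomic or gonadal epithelium-like cells. In the TNFα library the HOXB share was again highest in neuronal-like cells and lowest, at 21.7%, in coelomic or gonadal epithelium-like cells.

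**Figure D4:**
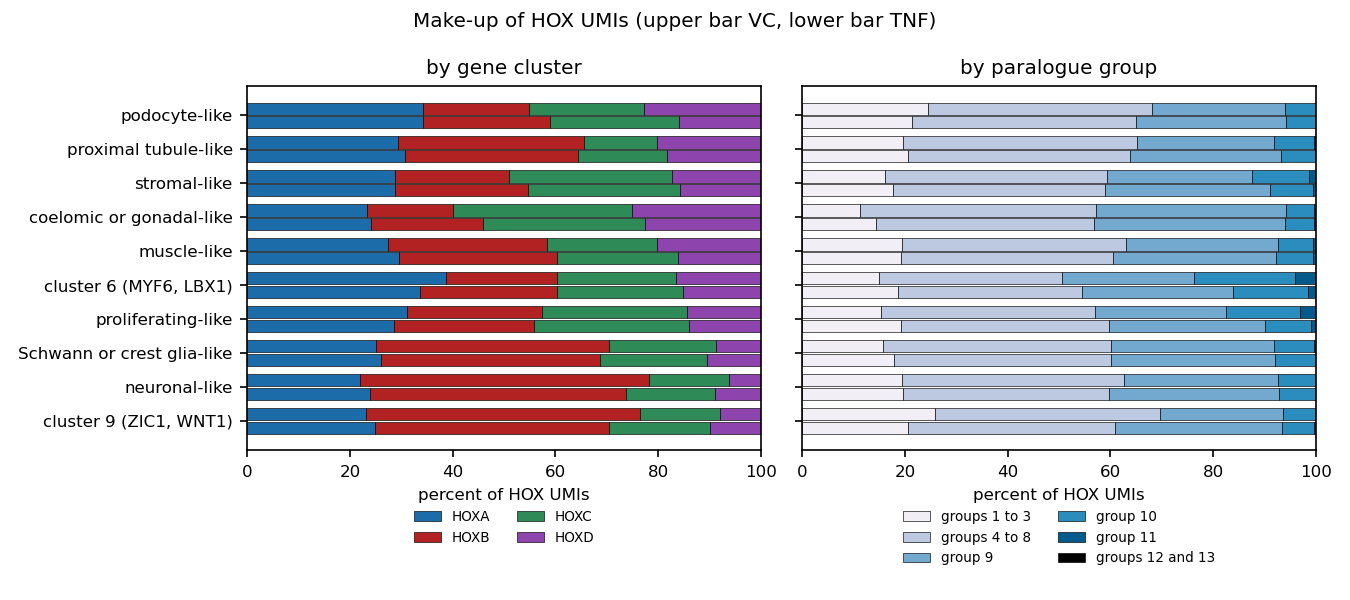
Percent of a class's HOX UMIs (x axis) that came from each cluster (left) and from each range of paralogue groups (right), with the VC library as the upper bar of each class and the TNFα library as the lower. The HOXB share is 56.4% in neuronal-like and 20.6% in podocyte-like cells of the VC library, and groups 10 to 13 are largest in cluster 6 (23.7%).

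Groups 10 to 13, the posterior end, gave 9.61% of all HOX UMIs in the VC library, with 0.0145% from groups 12 and 13. The podocyte-like and proximal tubule-like classes were below that share, as were all other named classes except stromal-like and proliferating-like cells. It was 6.11% (5.74 to 6.5%) in podocyte-like cells and 8.20% (7.88 to 8.53%) in proximal tubule-like cells, against 12.4% (12 to 12.9%) in stromal-like and 17.7% (16.9 to 18.6%) in proliferating-like cells. No early nephron-like class arose, but a marker gate put 348 VC cells in one, with 11.2% (10.5 to 12%), and without alignment of the libraries a cluster of 807 cells took that name, with 24.5%. Neuronal-like cells had 7.34% (7.10 to 7.59%) and muscle-like cells 7.30% (6.42 to 8.27%). Schwann or crest glia-like cells had 8.07% (7.61 to 8.55%), close to proximal tubule-like cells. Cells like coelomic or gonadal epithelium had 5.95% (5.3 to 6.67%), which overlaps podocyte-like cells, so a low share was not particular to the nephron classes. The largest share, 23.7% (23.0 to 24.5%), was in cluster 6, an unnamed cluster of 979 VC cells with SPOCK3, CYP26A1, MYF6 and LBX1 among its leading genes, of which MYF6 and LBX1 are factors of muscle precursors and CYP26A1 degrades retinoic acid. In the TNFα library cluster 6 again had the largest share of the named classes and clusters, 16%, but the classes lay closer together, at 9.77% in proliferating-like, 8.88% in stromal-like, 6.67% in proximal tubule-like and 5.91% in podocyte-like cells.

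Levels of single members followed these shares only in part. Neuronal-like cells, whose share was low, were the highest named class for HOXA10 and HOXC10. HOXA10 was at 191.8 CPM (182.5 to 201.5) in cluster 6, 155.9 CPM in neuronal-like, 128.1 CPM in proliferating-like and 92.4 CPM in stromal-like cells. It was at 85.7 CPM (lower bound 81.6) in proximal tubule-like and 40.1 CPM (36.9 to 43.5) in podocyte-like cells, so the tubule-like level was over that of podocyte-like cells beyond counting error. HOXA11 was at 27.3 CPM (23.8 to 31.1) in cluster 6 and 20.6 CPM in proliferating-like cells, but at 5.52 CPM in stromal-like, 2.61 CPM in proximal tubule-like and 0.833 CPM (0.43 to 1.46, 12 UMIs) in podocyte-like cells. HOXC10 was at 78.8 CPM in cluster 6, 76.0 CPM in neuronal-like and 69.6 CPM in stromal-like cells, and at 27.6 and 24.1 CPM in proximal tubule-like and podocyte-like cells.

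HOXC11, HOXD10 and HOXD11 were low in both nephron classes. HOXD11 was at 15.2 CPM in proliferating-like cells, 15.1 CPM in cluster 6 and 10.4 CPM in stromal-like cells, against 1.52 CPM in proximal tubule-like and 0.833 CPM in podocyte-like cells. HOXD10 was at 9.21 CPM in cluster 6, 8.43 CPM in proliferating-like and 6.39 CPM in stromal-like cells, against 1.41 and 0.208 CPM in the nephron classes. HOXC11 was at 12.2 CPM in cluster 6 and 0.314 CPM in proximal tubule-like cells. Of groups 12 and 13, HOXB13, a tail-bud and prostate gene, had 21 UMIs in the VC and 13 in the TNFα library. HOXC12 had 2 and 0, HOXC13 1 and 0, HOXA13 0 and 1, HOXD13 0 and 1, and HOXD12 none in either, where 3 UMIs over a library would be 0.0298 CPM in VC and 0.0329 CPM in TNFα.

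A set of 5 genes met the rule of at least 50 UMIs in a class of the VC library and at least 2-fold over the next named class in both libraries. These were 5 of the 31 members with enough UMIs, where 12.9% of all 14639 such genes met it. HOXB1 (ENSG00000120094, chromosome 17, 48528526 to 48531011, minus strand) was at 52.8 CPM (49.0 to 56.9, 700 UMIs) in neuronal-like cells and at 2.19 CPM (8 UMIs) in muscle-like cells, the next class, a ratio of 24.1. In the TNFα library these were 21.7 and 3.48 CPM, a ratio of 6.26. Within the neuronal-like class HOXB1 lay in cluster 7, led by CRABP1 and IGFBPL1, at 131.2 CPM, and hardly in cluster 3, led by HMX1 and PRPH, at 4.39 CPM. The unnamed cluster 9, led by MSX1, ZIC1, WNT1 and SOX2, held 62.4 CPM.

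HOXB2, a hindbrain gene, was at 304.6 CPM in neuronal-like and 84.5 CPM in proximal tubule-like cells, a ratio of 3.61 (2.69 in the TNFα library). HOXB5, which enteric and trunk neural crest use, was at 179.3 CPM in neuronal-like and 53.0 CPM in Schwann or crest glia-like cells, a ratio of 3.38 (2.32 in the TNFα library against stromal-like cells). HOXB6 was at 193.4 CPM in neuronal-like and 61.2 CPM in proximal tubule-like cells, a ratio of 3.16 (2.37 in the TNFα library against Schwann or crest glia-like cells). These genes thus shared the neuronal-like cells with HOXB9 (547.7 CPM, 2.61-fold over the next class in VC and 1.99-fold in TNFα) and HOXB8 (170.7 CPM, 2.71-fold and 1.91-fold), which lay just outside the rule.

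HOXD1 (ENSG00000128645, chromosome 2, 176188668 to 176190907, plus strand), a group 1 gene that, unlike its paralogues, is little used in the hindbrain, was the only member highest in podocyte-like cells. It was at 147.3 CPM (141.1 to 153.7) there and at 35.9 CPM in proximal tubule-like cells, a ratio of 4.11, and in the TNFα library at 68.8 and 30.8 CPM, a ratio of 2.24. Of the podocyte-like clusters, cluster 2, led by DDN and GADD45A, held 224.5 CPM and cluster 4, led by TESC and ITIH5, 43.8 CPM. HOXD8, just outside the rule, was at 127.9 CPM (122.9 to 133.1) in proximal tubule-like and 57.3 CPM in muscle-like cells, a ratio of 2.23 in VC and 1.89 in TNFα.

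Cofactors and partners differed by class as well. MEIS1 was at 233.8 CPM in stromal-like, 77.4 CPM in neuronal-like, 28.4 CPM in podocyte-like and 16.3 CPM in proximal tubule-like cells of the VC library. SIX2 was at 9.69 CPM in proliferating-like and 0.627 CPM in proximal tubule-like cells, and PAX2 at 98.4 CPM in proximal tubule-like cells. Of the rostral neural list, OTX1, OTX2, SIX3, SIX6 and RAX were under 1 CPM in each named class, and LHX2, which spinal interneurons also use, reached 20.7 CPM in neuronal-like cells.

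TNFα was tested in the bulk set, where the 24 h and 48 h pairs stand in for replicates since each treatment and time has 1 library. Of 30 listed members 9 passed the test, all lower with TNFα, where 19.3% of all genes passed, 8.42% higher and 10.8% lower. All 5 listed HOXD genes were among them (-0.62 to -0.22), with 3 of 9 HOXB, 1 of 10 HOXA and 0 of 6 HOXC genes, and 4 further members were under an unadjusted p of 0.05. The median difference was -0.14 over the members and -0.03 over all genes on the log2(CPM + 1) scale. HOXD1 was at 59.7 CPM with VC and 35.5 CPM with TNFα at 24 h, and at 44.8 and 31.0 CPM at 48 h. Both TNFα libraries were below both VC libraries, the difference was -0.62 (SE 0.08, limma adjusted p = 1.05e-05), and the mean CPM ratio was 0.638.

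The other falls were smaller. HOXD4 was at 145.8 and 109.7 CPM with VC and TNFα at 24 h and 130.9 and 108.7 CPM at 48 h (-0.34, SE 0.06, limma adjusted p = 0.000954). In the set 2 libraries of D25, normalized separately, HOXD4 was at 11.6 and 13.8 CPM, and the cause of this gap between tables was not tested. HOXD8 was at 89.4 and 72.8 CPM at 24 h and 108.1 and 88.0 CPM at 48 h (-0.29, SE 0.06, limma adjusted p = 0.00283). HOXD3 was at 86.2 and 68.1 CPM at 24 h and 96.3 and 83.9 CPM at 48 h (-0.27, SE 0.07, limma adjusted p = 0.00818). For each of these genes both TNFα libraries were below both VC libraries, by a small margin for HOXD8 and HOXD3. HOXD9 was at 85.4 and 76.8 CPM at 24 h and 91.0 and 74.2 CPM at 48 h (-0.22, SE 0.07, limma adjusted p = 0.0262), without overlap.

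Of the other clusters, HOXA5, a neck and thorax gene, was at 87.1 and 66.5 CPM with VC and TNFα at 24 h and 107.2 and 90.7 CPM at 48 h (-0.31, SE 0.07, limma adjusted p = 0.00249). HOXB5 was at 39.0 and 31.1 CPM at 24 h and 45.3 and 39.6 CPM at 48 h (-0.25, SE 0.08, limma adjusted p = 0.0237). HOXB8 was at 58.6 and 47.3 CPM at 24 h and 84.0 and 74.3 CPM at 48 h (-0.24, SE 0.07, limma adjusted p = 0.0199). In these the TNFα library at 48 h was above the VC library at 24 h, so the treatments overlap across times and the difference holds within a time. HOXB6 fell by 0.20 (limma adjusted p = 0.0443).

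Groups 10 and 11 gave no call. HOXA10 was at 27.2 and 25.7 CPM with VC and TNFα at 24 h and 31.7 and 24.6 CPM at 48 h, HOXC10 at 4.20 and 4.53 CPM and then 4.34 and 4.22 CPM, and HOXA11 at 0.221 and 0.285 CPM and then 0.22 and 0.219 CPM. TNFα libraries of HOXA10 were below both VC libraries, while HOXC10 and HOXA11 overlapped. At 24 h, 25 of 30 members were lower with TNFα (58.3% of all genes), at 48 h 22 (52.9%), and at both times 18 (39.7%), with no member past 1 on the log2 scale. Without the time term limma called 0 members, with 4 under an unadjusted p of 0.05, and DESeq2 called 4 (HOXD1, HOXD4, HOXA5 and HOXD8).

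**Figure D5:**
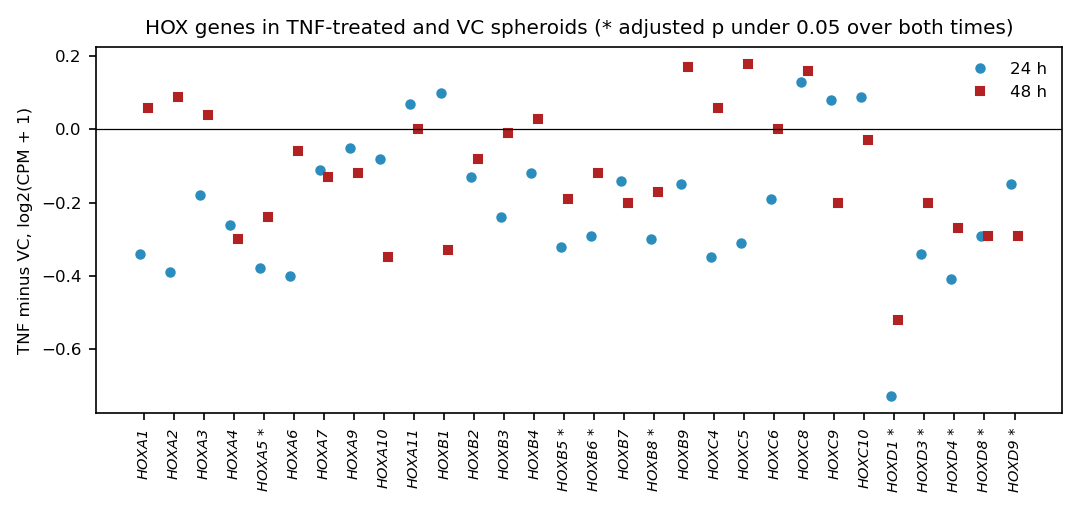
Difference between TNFα and VC on the log2(CPM + 1) scale (y axis) for the 30 listed members (x axis) at 24 h (circles) and 48 h (squares), with an asterisk for a limma adjusted p under 0.05 over both times. HOXD1 lies lowest, at -0.73 and -0.52.

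Podocyte markers were lower with TNFα in the same libraries, with a sum of 7396.9 CPM with VC and 4423.0 CPM with TNFα at 24 h and of 6894.8 and 3243.8 CPM at 48 h. The sum of 10 proximal tubule markers was 827.0 and 432.0 CPM at 24 h and 817.3 and 492.1 CPM at 48 h. The part of either in the falls of HOXD1 and HOXD8 was not tested. Of the lists, 1 of 9 cofactors rose (PKNOX2 by 0.35), and of 16 HOX regulators 1 rose and 4 fell, with ALDH1A2 at -0.71 (limma adjusted p = 1.16e-07). Of 12 HOX cluster noncoding genes 5 fell, among them HAGLR (-0.46) and HOXD-AS2 (-0.40), both of the HOXD cluster. Of 12 metanephric partners 2 rose and 4 fell, with RET at 1.22 and OSR1 at -0.67. Of 2 listed rostral neural genes none passed the limma test.

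Within classes of the day 24 libraries, the HOX level was lower with TNFα than with VC in most classes. The TNFα over VC ratio of all HOX UMIs was 0.68 (0.668 to 0.692) in neuronal-like, 0.776 in stromal-like, 0.88 in proximal tubule-like and 0.96 (0.941 to 0.981) in podocyte-like cells, 0.66 in the unnamed clusters together and 0.755 (0.749 to 0.761) over all cells. The order of classes in this ratio depends on the clustering, since without alignment of the libraries the level of neuronal-like cells was 3287.7 CPM with VC and 2813.0 CPM with TNFα, and that of stromal-like cells 1559.6 and 1123.2 CPM. By cells, cluster 7 was the larger part of the neuronal-like class in VC (881 against 805) and cluster 3 in TNFα (1282 against 791). By UMIs, which the levels rest on, cluster 3 was the larger in both libraries. It held 8195609 UMIs against 5059143 in VC and 4971393 against 2523760 with TNFα. The level went from 5326.0 to 3279.6 CPM within cluster 7 and from 2053.3 to 1721.9 CPM within cluster 3. HOXD1 in podocyte-like cells went from 147.3 to 68.8 CPM, a ratio of 0.467 (0.436 to 0.501), lower in both podocyte-like clusters (96.5 CPM in cluster 2 and 23.1 CPM in cluster 4 with TNFα). In proximal tubule-like cells its ratio was 0.858. HOXD8 had ratios of 0.659 (0.616 to 0.704) in proximal tubule-like and 0.70 (0.619 to 0.792) in podocyte-like cells and 0.95 in neuronal-like cells. HOXD9, in contrast, was higher in podocyte-like cells with TNFα, at a ratio of 1.73 (1.51 to 1.99), and lower in stromal-like cells, at 0.74.

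Ratios of other members, of which HOXB5, HOXB8 and HOXA5 had a call in bulk, were as follows. HOXB5 had a ratio of 0.381 (0.346 to 0.419) in neuronal-like and 1.17 in podocyte-like cells, HOXB8 0.625 and HOXA5 0.532 in neuronal-like cells, and HOXA10, with no call in bulk, 0.469 in proliferating-like, 0.617 in stromal-like and 0.879 in podocyte-like cells. The classes lay closer together in the TNFα library, where the ratio of the highest to the lowest class was smaller than in VC for 31 of 31 members with enough UMIs (median 3.16 against 5.79). The share of all genes that narrowed likewise was not computed, so this is not shown to be particular to HOX genes. Markers of other classes were higher within classes of that library. The podocyte marker sum in neuronal-like cells was 590.6 CPM with TNFα and 240.8 CPM with VC, and the neuronal marker sum in podocyte-like cells 412.8 and 167.2 CPM. In their own classes these sums were lower with TNFα, at 4434.1 against 8473.9 CPM for podocyte and 6821.2 against 11165.7 CPM for neuronal markers. The part of these markers and of the lower depth in the HOX ratios was not tested, and with 1 library per condition library and treatment cannot be told apart.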

How the data were processed

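For bulk RNA the authors aligned reads with STAR 2.7.8a to GRCh38, counted reads per gene with HTSeq (0.11 in the submitters' processing notes), normalized them with voom and deposited log2 values, namely log2(CPM + 1) with 0.5 added to each count. The values gave back whole reads in 100% of cases, at most 1.69e-08 reads from a whole number. Single-cell UMI counts were deposited by the authors as filtered matrices without normalization (Cell Ranger 6.0.1 in the matrix header, 2.1.1 in the notes). The members and gene lists were chosen with earlier results of these data known.

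In set 2, limma 3.58.1 (R 4.3.3, eBayes with a trend, 1 mean per day) was fitted to all 27650 genes, and in the TNF set to 21093 genes with time as a term. Tests were two-sided, and p-values were Benjamini-Hochberg adjusted over the whole table, with 0.05 as the threshold for a call. Alternatives were edgeR 4.0.16 (quasi-likelihood, TMM) and DESeq2 1.42.0 on recovered reads, other scalings and filters, and each set 2 library left out. The tables were normalized separately and not compared by level. Values in every library were given for groups 10 and 11 and for up to 8 rises and 8 falls per comparison, and at most 4 genes were named per list. Some list genes are not reported here by name. IDs and exons came from GENCODE 44.

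Cells with over 500 genes were clustered without HOX genes in scanpy 1.11.5 (2000 variable genes per library, 30 components, Harmony rewritten in numpy 2.4.6, 20 neighbours, leidenalg 0.10.2 at 0.25). A cluster was named "like" a cell type where at least 3 markers reached 20 CPM and a log2 fold of 1 over other cells. Scrublet's automatic threshold marked 0 cells, and cells with a score of at least 0.25 (181 in VC, 532 in TNFα) were kept. The fits and clustering were tested on simulated data.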

Additional observations from a re-analysis of the deposited data

Results flagged for a closer look

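Ratios of TNFα over VC in single cells went in opposite directions between classes in the following cases. Each condition has 1 library, so these differences were not tested, and the intervals cover counting error only. The ratio of all HOX UMIs was 0.68 in neuronal-like and 1.11 (1.07 to 1.16) in muscle-like cells. Of the muscle-like clusters, cluster 14 had the most VC cells (205 of 448) and cluster 12 the most TNFα cells (1117 of 1961). By UMIs, clusters 12, 14 and 15 lay close together in VC, at 1115556, 1265790 and 1267222. HOXB1, the hindbrain gene, had a ratio of 0.412 in neuronal-like cells (700 UMIs with VC and 163 with TNFα) and of 4.31 (1.02 to 20.8) in coelomic or gonadal epithelium-like cells, the latter from 4 and 6 UMIs. HOXB6, a trunk gene, had a ratio of 0.546 in neuronal-like cells and of 1.67 (1.05 to 2.63) in coelomic or gonadal epithelium-like cells (55 and 32 UMIs). HOXD1 had a ratio of 0.467 in podocyte-like cells and of 3.42 (2.19 to 5.42) in Schwann or crest glia-like cells (34 and 54 UMIs). In the TNFα library the podocyte marker sum of Schwann or crest glia-like cells was 316.3 CPM against 84.1 CPM with VC, and the neuronal marker sum of coelomic or gonadal epithelium-like cells was 434.3 against 407.5 CPM. The part of these markers in the ratios was not tested.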

How the results depend on the processing

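Depth limits HOXC11 and HOXD11, which rest on under 40 reads in each set 2 library, and HOXA11 on D21. Between D25 and D21 (2 members called) no trend and a fold of at least 1 gave 0 calls, and leaving out 1 library 0 to 4. Between D29 and D21 (19 called), leaving out 1 library gave 9 to 25 and the fold rule 6, which include HOXB9 and not HOXD11. Between D29 and D25 (6 called), edgeR and DESeq2 gave 10 each, no trend and the fold rule 3 each, and leaving out 1 library 0 to 19. For TNFα (9 called), dropping the time term or asking for a fold of at least 1 gave 0, DESeq2 4 and no trend 3. Median centring, a mean of at least 1 CPM and a pseudocount of 0.1 kept these counts within 1.5 times. Counts with 1 library left out moved over all genes as well and are not particular to HOX genes. The cause of the differences was not tested.

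Same-numbered libraries' deviations correlated over 18641 genes at 0.14 between D21 and D25, 0.08 between D21 and D29 and 0.27 between D25 and D29. Whether the Org numbers pair the libraries was not tested, as these correlations cannot decide it. With a replicate block, 3, 24 and 11 members were called between D25 and D21, D29 and D21, and D29 and D25.

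Over all genes, the count between D29 and D25 (574) was 1336 with edgeR, 1278 with DESeq2, 1118 with the block, 1127 with centring, 1128 above 1 CPM and 209 without trend. The fold rule left 392 of 1486, 1366 of 5081, 187 of 574 and 376 of 4061 genes for D25 against D21, D29 against D21, D29 against D25 and TNFα, and TNFα gave 1310 without the time term and 2168 with DESeq2. For TNFα edgeR called 2322 genes higher of 4455, limma 1776 of 4061.

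The share of groups 10 to 13 was 13.1% without alignment and 13% with a marker gate in stromal-like cells (12.4% as reported). It was 7.06% at resolution 0.5, 7.37% above 1000 genes and 7.12% with the gate in proximal tubule-like cells (8.20%), and 7.83% with the gate in neuronal-like cells (7.34%). In muscle-like cells (7.30%) it was 9.74% with the gate and 20.3% without cells of a Scrublet score of 0.25 or more, a setting chosen after seeing the data, where a cluster led by NEB and SPOCK3 joined the class. In podocyte-like cells of the VC library no setting moved it beyond its interval, but in the TNFα library it was 4.19% without alignment (5.91% as reported). No neural progenitor-like class arose as reported, but the share was 8.11% at resolution 0.5, 8.07% above 1000 genes and 5.17% with the gate in the classes of that name. Removal of automatically called doublets was not run, since 0 cells were marked.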
